A study of Monodelphis domestica with 6 samples.

Results

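The genes of TGF-beta, NODAL and BMP signalling were compared between skin fibroblasts of *Monodelphis domestica*, a laboratory opossum, and the induced pluripotent stem cells (iPSCs) made from them. Members were chosen by their symbols alone. They are the TGFB, BMP, GDF, inhibin and NODAL ligands, the TGFBR, BMPR and ACVR receptors, the SMADs, *ID1* to *ID4*, *BAMBI*, *TDGF1*, and secreted antagonists such as *CER1*, *GREM1*, *NOG*, *CHRD*, *FST* and the FSTL genes. The rule matched 57 of the 35665 genes in the files. The libraries came from wild-type neonatal skin fibroblasts (neoSFs) of female pups of the inbred FD2M1 and LSD1 strains, 1 library per strain, and from monoiPSCs of the same strains. Each monoiPSC line was made by nucleofecting such neoSFs with episomal plasmids for human *OCT4*, *SOX2*, *NANOG*, *KLF4*, *LIN28* and *cMYC*, with plasmids for a mouse dominant-negative p53 and EBNA1. The 4 monoiPSC libraries come from an FD2M1 line and an LSD1 line, each at passages 15 and 25, so the passages of a line are not independent cultures and p-values measure only the spread between these libraries. The neoSFs grew in a medium rich in fetal bovine serum, and the monoiPSCs on Matrigel in a feeder-free medium with LIF, bFGF and a ROCK inhibitor. The neoSF libraries were read in-house as short single-end reads and the monoiPSC libraries by a sequencing service as longer paired-end reads. Medium and sequencing platform therefore separate the libraries as cell type does, and their effects cannot be told apart.

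TGF-beta superfamily ligands are secreted dimers that bring together type II and type I receptor kinases, and the type I kinase then phosphorylates receptor-regulated SMADs in the cytoplasm. TGF-beta, activin and NODAL signal mainly through SMAD2 and SMAD3, and BMPs through SMAD1, SMAD5 and SMAD9, each with the common partner SMAD4, while SMAD6 and SMAD7 inhibit the pathway and are themselves induced by it. TGF-beta is a main inducer of extracellular matrix genes in fibroblasts, NODAL and activin signalling is known for its role in primed pluripotent cells and in the primitive streak, and BMP signalling for patterning the embryo and inducing the ID genes.

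Most of these genes were lower in the monoiPSCs. Of the 57 members, 49 were tested, because their normalized read count (NRC) reached 20 in each neoSF library or in each of the 4 monoiPSC libraries. A member was called differentially expressed (DE) where edgeR's quasi-likelihood test gave an adjusted p (Benjamini-Hochberg) no higher than 0.05 and the groups differed 2-fold or more. By this rule 26 members fell in the monoiPSCs, 7 rose and 16 did not pass. Members that fell made up 53.1% of those tested, against 21.6% of all 13072 genes tested, and members that rose made up 14.3%, against 24.3%. In either direction, 67.3% of the tested members were DE, against 45.9% of all genes. The median log2 fold change was -1.35 over the tested members and 0.08 over all genes tested. The member median is also -1.35 with the 2 members at the detection floor in neoSFs set to their lower bound, which lies above the median in either case. The neoSF and monoiPSC libraries did not overlap for 36 members, or 73.5% of those tested, against 73.2% of all genes. These shares of all genes are also the background of the counts by class that follow, each over few genes.

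The filter itself fixes the direction of some members. Of the tested members, 7 were expressed in neoSFs only and 6 in monoiPSCs only, and all 7 fell and all 6 rose. Among the 36 members expressed in both groups, 19 fell, 1 rose and 16 did not pass. Of all genes expressed in both groups, 19.8% fell and 18.8% rose. The median log2 fold change of the 36 members was -1.20, against 0.02 for all such genes. In bulk RNA, fewer cells of a type and less RNA per cell cannot be told apart.

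**Figure D1:**
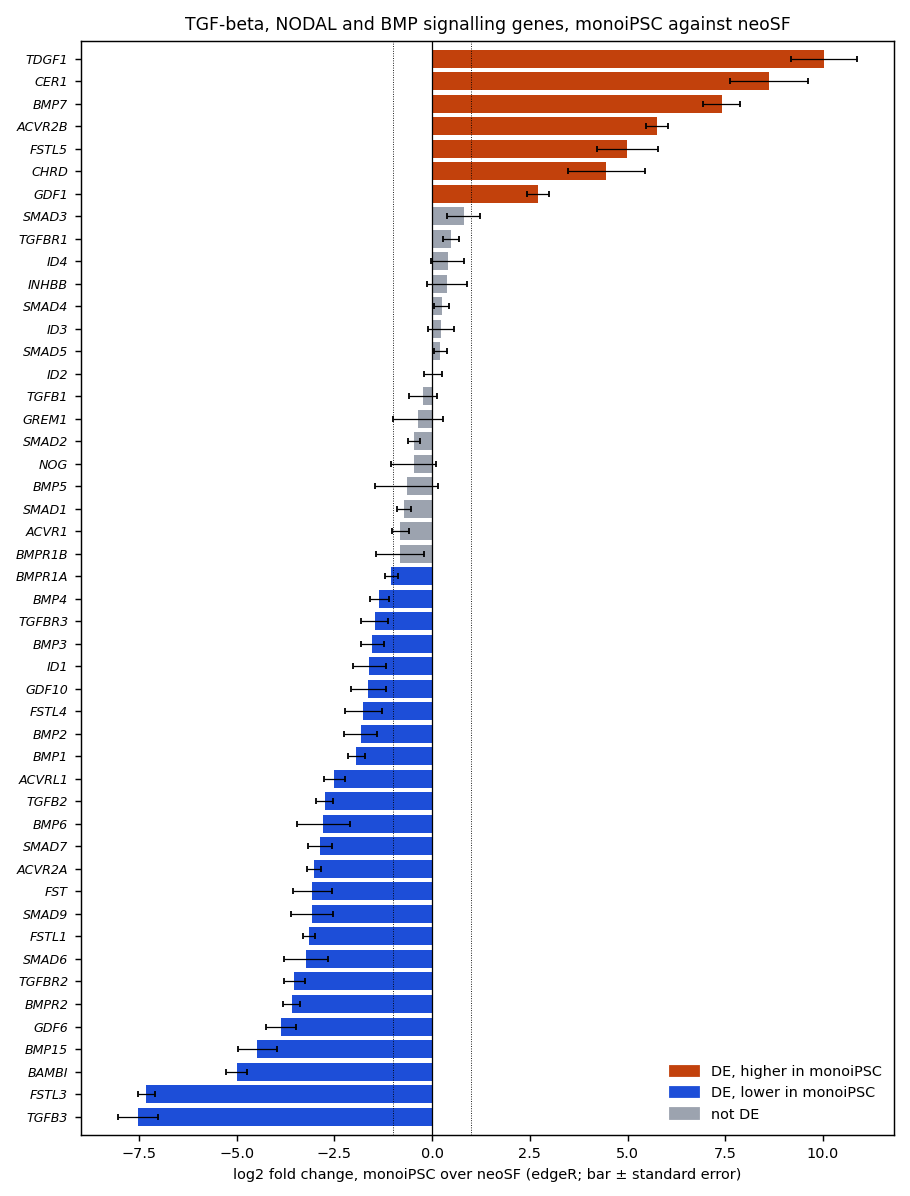
Log2 fold change of the tested members, 1 of which is not shown, monoiPSC over neoSF, as bars with the standard error from edgeR and with dotted lines at a 2-fold change. From *TGFB3* at -7.54 to *TDGF1* at 10.04, more members fell (blue) than rose (7, orange), and 16 (grey) did not pass, and the bars of *TDGF1* and *BMP7* depend on the fit because neoSFs were at the detection floor.

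The libraries carried the markers of their labels. All 13 fibroblast markers found in the files reached an NRC of 20 in both neoSF libraries, and 11 of them also did so in all 4 monoiPSC libraries. The summed NRC of the 13 was at least 2188031 in neoSFs and at most 22129 in monoiPSCs. *COL1A1* (mean NRC 1054192) and *FN1* (684576) carried most of the neoSF sum. *TWIST1* overlapped between the groups, at 5732 and 2635 in neoSFs and 1241 to 2772 in monoiPSCs. All 7 pluripotency markers found reached it in the 4 monoiPSC libraries, and 1 in both neoSF libraries, with sums of 9716 to 13745 against at most 194 in neoSFs. Sums of markers of some other cell types also differed between the groups. The summed NRC of 5 melanocyte markers was 257 to 407 in neoSFs and 4604 to 15571 in monoiPSCs. *DCT* alone made up most of the monoiPSC sum, at a mean NRC of 8279 against 1.77 in neoSFs, while *MITF* had a mean of 263 against 303, *MLANA* of 7.65 against 20.1, and *TYR* and *TYRP1* stayed at 15.8 or less. The sum of muscle markers was 438 to 1801 in neoSFs and 2094 to 19999 in monoiPSCs. Its highest value was that of LSD1 passage 25, and the next was 6771, in LSD1 passage 15. In LSD1 passage 25, *ACTA1* was at an NRC of 9645, *MYOG* at 5549 and *DES* at 4213, while *MYF5* was at 1.03. Keratinocyte (316 to 1889 against 338 to 640.4), endothelial (235 to 301 against 502 to 736), leukocyte (137 to 185 against 90.1 to 118) and neural progenitor markers (8220 to 24932 against 4411 to 10460) were also counted, and within these lists single genes (*TIE1* in the endothelial list in monoiPSCs and *NES* in the neural list) carried most of the sum, while the endothelial *VWF* and *ERG* were lower in monoiPSCs. The part of any of these cells in the results was not tested. Total counts were 14278794 and 16982978 in neoSFs and 28684754 to 35564261 in monoiPSCs, and a count of 3, taken as the detection floor, corresponded to an NRC of 5.85 and 4.75 in the neoSF and 1.55 to 1.88 in the monoiPSC libraries. Floors cover counting error only.

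Of the 3 TGF-beta ligands, *TGFB2* and *TGFB3* fell and *TGFB1* did not pass. In what follows, neoSF values are given for FD2M1 and then LSD1, and monoiPSC values for FD2M1 at passages 15 and 25 and then LSD1 at passages 15 and 25. *TGFB2* (gene 100017548, on MonDom5 chromosome 2) had an NRC of 17785 and 17003 in neoSFs and of 2761, 1842, 2983 and 2114 in monoiPSCs, a 6.72-fold fall with no overlap between the groups (log2 fold change -2.75, standard error 0.22, edgeR adjusted p = 6.18e-05). *TGFB3* (gene 100017937, chromosome 1) had an NRC of 5670.5 and 1684 in neoSFs and of 22.1, 12.8, 15.6 and 23.0 in monoiPSCs, which is 185-fold lower (log2 fold change -7.54, standard error 0.51, edgeR adjusted p = 3.55e-05). All 4 monoiPSC libraries thus held little *TGFB3* and the neoSF libraries differed between strains, so that its log2 fold change was -6.42 without the FD2M1 and -8.16 without the LSD1 neoSF library. *TGFB1* (gene 100019183, chromosome 4) had an NRC of 2579 and 2138 in neoSFs and of 1421, 1940.4, 1148 and 3015 in monoiPSCs, and the groups overlapped (log2 fold change -0.23, standard error 0.36, edgeR adjusted p = 0.592).

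Of the ligands that signal as NODAL and activin do, *GDF1* rose and the others were low or did not pass. *NODAL* itself (gene 100023464, chromosome 1) was near the detection floor in both cell types, with an NRC of 3.90 and 11.3 in neoSFs and of 6.17, 0, 8.06 and 3.72 in monoiPSCs, and was not tested. *GDF1* (gene 100016659, chromosome 3), a ligand that pairs with NODAL in early patterning, had an NRC of 156 and 141 in neoSFs and of 663, 840.2, 1009 and 1131 in monoiPSCs. It was 6.54-fold higher in monoiPSCs and the groups did not overlap (log2 fold change 2.71, standard error 0.27, edgeR adjusted p = 0.000171). *GDF1* and the ceramide synthase gene *CERS1* overlap in the RefSeq annotation of another opossum assembly, *CERS1* rose as well (log2 fold change 2.89, edgeR adjusted p = 0.000348), and the reads of the pair may not have been told apart. *INHBB* (gene 100010407, chromosome 4), which encodes the activin B subunit, had an NRC of 48.8 and 140.2 in neoSFs and of 147, 102, 69.9 and 145 in monoiPSCs, with overlapping groups (log2 fold change 0.37, standard error 0.51, edgeR adjusted p = 0.547). *INHA*, the inhibin alpha subunit, stayed at an NRC of 9.76 or less in every library, and *GDF3*, a NODAL-related ligand, had 0 counts in all 6. *LEFTY1*, *LEFTY2*, *INHBA*, *GDF11*, *GDF15* and *ACVR1B*, a type I receptor of activin and NODAL, were not analysed here, so the counts by class do not cover them.

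Among the 13 BMP and GDF ligands, *BMP7* rose, 7 fell, *BMP5* did not pass and 4 were not tested. *BMP7* (gene 100027751, chromosome 1) had 1 and 2.83 estimated counts in neoSFs and an NRC of 474, 498, 759 and 539 in monoiPSCs, so it went from the detection floor to a mean NRC of 568 ± 130.5 (SD, n = 4). With neoSFs set to 3 counts, it was at least 104-fold higher in monoiPSCs on scaled counts, or 97-fold by NRC, (edgeR adjusted p = 2.85e-05). *BMP4* (gene 100010652, chromosome 1), a ligand of early mesoderm, moved the other way, with an NRC of 456 and 463 in neoSFs and of 157, 143, 215 and 162 in monoiPSCs. This was a 2.54-fold fall without overlap (log2 fold change -1.35, standard error 0.24, edgeR adjusted p = 0.00201). *BMP2* (gene 100031674, chromosome 1), its close paralogue, had an NRC of 3740.4 and 2017 in neoSFs and of 1217, 862, 473 and 492 in monoiPSCs. It fell 3.54-fold (log2 fold change -1.82, standard error 0.42, edgeR adjusted p = 0.00694), but without the FD2M1 neoSF library the log2 fold change was -1.32 and the call was lost. *BMP5* was highest in the FD2M1 neoSFs, with an NRC of 194 there, 23.2 in the LSD1 neoSFs and 24.7, 107, 57.2 and 70.3 in monoiPSCs, and did not pass (log2 fold change -0.65, standard error 0.81, edgeR adjusted p = 0.507). Its direction depended on 1 library, being 1.53 without the FD2M1 and -1.49 without the LSD1 neoSF library.

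Several other ligands of this class fell. *GDF6* (gene 100030130, chromosome 3), a BMP-type ligand of joints and eye, had an NRC of 160.0 and 263 in neoSFs and of 11.9, 18.3, 9.95 and 14.7 in monoiPSCs, a 14.6-fold fall (log2 fold change -3.86, standard error 0.38, edgeR adjusted p = 0.000147). *GDF10* (gene 100018852, chromosome 1) had an NRC of 1279 and 778 in neoSFs and of 497, 235, 358 and 154 in monoiPSCs, and fell 3.09-fold (log2 fold change -1.63, standard error 0.44, edgeR adjusted p = 0.0139). The call of *GDF10* was lost without the FD2M1 neoSF library, at a log2 fold change of -1.23. *BMP15*, known from the oocyte, was low in both groups, with an NRC of 41.3 and 55.4 in neoSFs and of at most 2.81 in monoiPSCs (log2 fold change -4.47). *BMP3* (-1.53) and *BMP6* (-2.78) fell too, and *BMP6* had an NRC of at most 72.5 and overlaps *TXNDC5*, a more abundant gene that also fell (-1.76), in the other assembly's annotation. *GDF2*, *GDF5*, *GDF9* and *BMP10* stayed at an NRC of 6.31 or less. *BMP1* (gene 100033098, chromosome 1) is no BMP ligand but a protease that matures procollagen and cleaves chordin, and it fell 3.84-fold, from an NRC of 6119 and 9398 to 1592, 2370.0, 1769 and 1856 (log2 fold change -1.94, standard error 0.22, edgeR adjusted p = 0.000296).

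**Figure D2:**
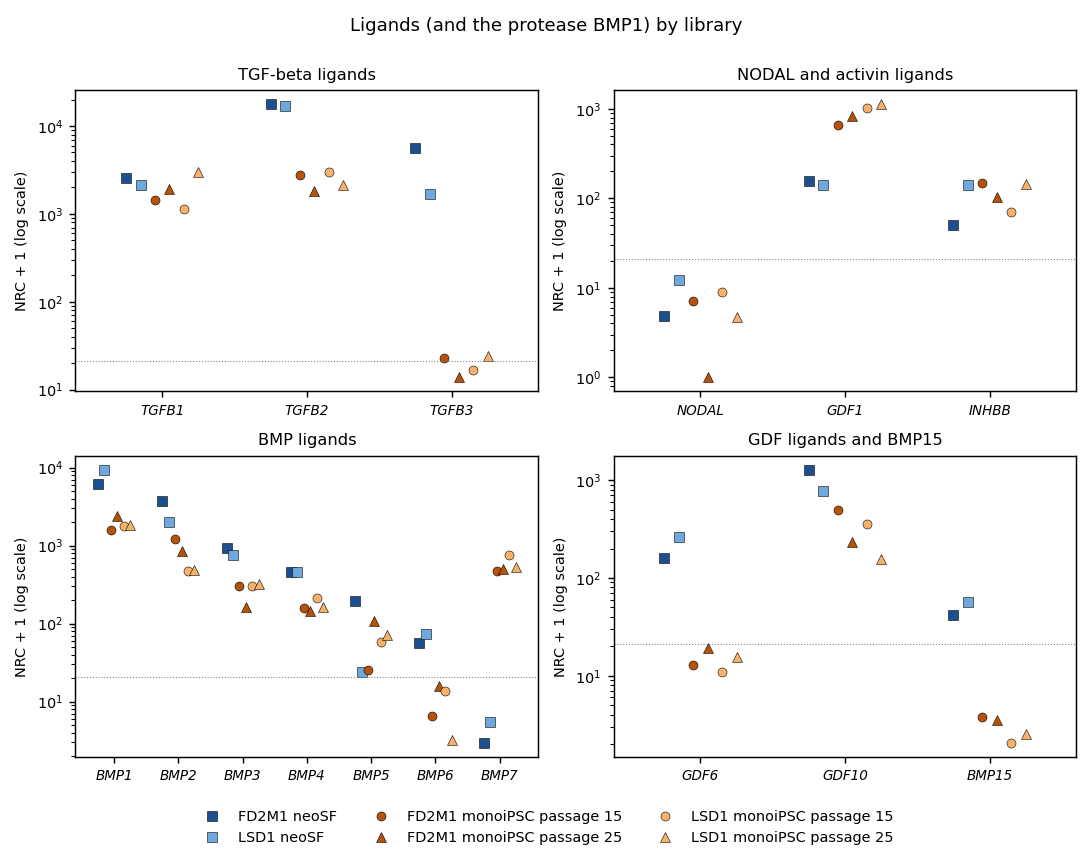
NRC + 1 of the ligands in each of the 6 libraries on a log axis, with squares for neoSFs, circles for monoiPSCs at passage 15, triangles for passage 25, and a dotted line at the NRC of 20 used as the expression limit. *BMP7* went from 1.95 and 4.49 in neoSFs to 474 or more in monoiPSCs and *TGFB3* from 1684 or more to 23.0 or less, while *TGFB1* and *INHBB* overlapped.

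Of the 4 type II receptors, *ACVR2B* rose and the other 3 fell. *ACVR2B* (gene 100029516, chromosome 6), a type II receptor of activins, NODAL and several BMPs, had an NRC of 12.5 and 15.9 in neoSFs, from 6.42 and 10 estimated counts, and of 728, 737, 783 and 589.5 in monoiPSCs, a 54.0-fold rise (log2 fold change 5.76, standard error 0.29, edgeR adjusted p = 1.5e-05). Its paralogue *ACVR2A* (gene 100018756, chromosome 4), which binds the same kinds of ligand, went from an NRC of 5901 and 7213 to 729, 620.1, 851 and 842, an 8.08-fold fall (log2 fold change -3.01, standard error 0.18, edgeR adjusted p = 2.3e-05). Both genes thus had clearly separated groups, and in opposite directions. *TGFBR2* (gene 100031897, chromosome 8), the TGF-beta type II receptor, had an NRC of 3424 and 3249 in neoSFs and of 349.6, 195, 326 and 216 in monoiPSCs, an 11.5-fold fall (log2 fold change -3.52, standard error 0.26, edgeR adjusted p = 4.63e-05). *BMPR2* (gene 100018765, chromosome 7), the BMP type II receptor, had an NRC of 6315 and 6179 in neoSFs and of 619, 369, 538 and 413 in monoiPSCs, a 12.1-fold fall (log2 fold change -3.59, standard error 0.22, edgeR adjusted p = 2.67e-05). In each of these 3 genes that fell, the neoSF libraries lay close together and above every monoiPSC library.

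Of the 5 tested type I receptors, 2 fell and 3 did not pass. *TGFBR1* (gene 100011507, chromosome 6), the TGF-beta type I receptor, had an NRC of 3260.4 and 3865 in neoSFs and of 5091, 4501, 5411 and 3646 in monoiPSCs, and did not pass (log2 fold change 0.48, standard error 0.20, edgeR adjusted p = 0.0698). So *TGFBR1* overlapped between the groups where its partner *TGFBR2* fell. *BMPR1A* (gene 100026839, chromosome 1), the main BMP type I receptor, had an NRC of 1425 and 1277 in neoSFs and of 651, 693, 602 and 509.8 in monoiPSCs, a 2.06-fold fall close to the fold limit (log2 fold change -1.04, standard error 0.17, edgeR adjusted p = 0.00137), and it missed that limit without the FD2M1 neoSFs (-0.97) or without LSD1 passage 25 (-0.98). *ACVRL1* (gene 100018869, chromosome 8), a receptor best known from endothelium, had an NRC of 356 and 363 in neoSFs and of 51.4, 53.7, 53.0 and 78.3 in monoiPSCs, a 5.68-fold fall (log2 fold change -2.51, standard error 0.27, edgeR adjusted p = 0.000228). *ACVR1*, a type I receptor for BMPs, was lower in monoiPSCs by less than 2-fold (log2 fold change -0.81, standard error 0.21, edgeR adjusted p = 0.0111) and passed the fold limit, at -1.04, without the LSD1 neoSF library. *BMPR1B* did not pass, with an NRC of 131 and 59.4 in neoSFs and of 34.8, 98.2, 23.1 and 45.9 in monoiPSCs (log2 fold change -0.82, edgeR adjusted p = 0.277), and *ACVR1C* was at 0 in monoiPSCs and at most at 12.7 in neoSFs.

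All 3 co-receptors and pseudoreceptors changed, *TDGF1* upward and the others downward. *TDGF1* (gene 103099228, chromosome 6) encodes CRIPTO, the membrane co-receptor that NODAL needs. It had 0 and 1 counts in neoSFs and an NRC of 451, 1209, 1095 and 1055 in monoiPSCs, with a mean of 953 ± 341 (SD, n = 4). It was at least 174-fold higher on scaled counts, or 163-fold by NRC, (edgeR adjusted p = 8.15e-05). *BAMBI* (gene 100018745, chromosome 8), a receptor-like protein without a kinase that dampens BMP and TGF-beta signalling, went the other way, from an NRC of 6802 and 5947 to 238, 195, 194 and 117. This was a 32.1-fold fall with no overlap (log2 fold change -5.00, standard error 0.27, edgeR adjusted p = 1.68e-05). *TGFBR3* (gene 100026705, chromosome 2), or betaglycan, which presents TGFB2 to its receptors, had an NRC of 146 and 275 in neoSFs and of 76.8, 89.4, 59.7 and 59.8 in monoiPSCs and fell 2.78-fold (log2 fold change -1.47, standard error 0.35, edgeR adjusted p = 0.00801). Without the LSD1 neoSF library the log2 fold change of *TGFBR3* was -0.93 and the call was lost.

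Of the 7 secreted antagonists, *CER1* and *CHRD* rose, 3 fell, *FST* and *FSTL3* among them, and *GREM1* and *NOG* did not pass. *CER1* (gene 100020202, chromosome 6) encodes Cerberus, which binds NODAL, BMPs and WNTs in the early embryo. It had an NRC of 5.85 and 12.7 in neoSFs, from 3 and 8 counts, and of 1096, 5354, 2600.1 and 5231 in monoiPSCs, a 394-fold rise (log2 fold change 8.62, standard error 1.01, edgeR adjusted p = 0.000324). The rise rests on few neoSF counts, and its log2 value was 9.33 without the LSD1 neoSF library. *CHRD* (gene 103100504, chromosome 2) encodes chordin, a BMP antagonist of the organizer, and had an NRC of 14.3 and 47.8 in neoSFs and of 209, 1113, 285 and 990.0 in monoiPSCs. It rose 22.0-fold (log2 fold change 4.46, standard error 0.99, edgeR adjusted p = 0.00593), with a log2 fold change of 3.85 without the FD2M1 and 5.66 without the LSD1 neoSF library. In each line, passage 25 held more of both than passage 15.

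Among the other antagonists, the activin-binding *FST* and *FSTL3* fell. *FST* (gene 100016406, chromosome 3) encodes follistatin, which traps activins, and had an NRC of 358 and 136 in neoSFs and of 29.1, 16.3, 40.9 and 23.2 in monoiPSCs. It fell 8.35-fold (log2 fold change -3.06, standard error 0.49, edgeR adjusted p = 0.00138), and the log2 fold change was -2.22 without the FD2M1 neoSF library. *FSTL3* (gene 100024576, chromosome 3), which also binds activin, had an NRC of 2776 and 3842 in neoSFs and of 19.1, 22.9, 19.5 and 16.3 in monoiPSCs, a 158-fold fall (log2 fold change -7.31, standard error 0.22, edgeR adjusted p = 7.57e-06). It overlaps LOC100024552, an unnamed gene, in the other assembly's annotation, which had an NRC of 200.2 and 434 in neoSFs and fell as well (-8.84). *GREM1* (gene 100031599, chromosome 1), a BMP antagonist, had an NRC of 12355 and 2687 in neoSFs and of 7703, 6930.4, 5015 and 2136 in monoiPSCs. The groups overlapped and the sign turned with the library left out (log2 fold change -0.37, standard error 0.64, edgeR adjusted p = 0.639, 1.11 without FD2M1 and -1.08 without LSD1 neoSFs). *NOG* (gene 100011976, chromosome 2), or noggin, had an NRC of 208 and 66.8 in neoSFs and of 59.5, 68.7, 78.4 and 164 in monoiPSCs and did not pass either (log2 fold change -0.47, standard error 0.57, edgeR adjusted p = 0.501, and 0.56 without the FD2M1 neoSFs).

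The other follistatin-like genes, which are named for sequence and are not all activin antagonists, split in direction. *FSTL1* (gene 100017102, chromosome 4), a secreted glycoprotein of mesenchymal cells, had an NRC of 92021 and 81439 in neoSFs and of 8952, 8924, 9234 and 9585 in monoiPSCs. It fell 8.86-fold with little spread in either group (log2 fold change -3.15, standard error 0.15, edgeR adjusted p = 1.24e-05). *FSTL5* (gene 100022693, chromosome 5) had an NRC of 0 and 12.7 in neoSFs, from 0.5 and 8 estimated counts, and of 229.8, 125, 192 and 379 in monoiPSCs, and rose 31.8-fold (log2 fold change 4.99, standard error 0.78, edgeR adjusted p = 0.0012). With so few neoSF counts its size was unsteady, at a log2 fold change of 4.27 without the FD2M1, 6.93 without the LSD1 neoSF library and 5.91 with limma. *FSTL4* (gene 100017875, chromosome 1) had an NRC of 122 and 278 in neoSFs and of 81.4, 32.6, 43.5 and 63.9 in monoiPSCs and fell 3.39-fold (log2 fold change -1.76, standard error 0.47, edgeR adjusted p = 0.0136), a call lost without the LSD1 neoSF library, at -1.05.

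**Figure D3:**
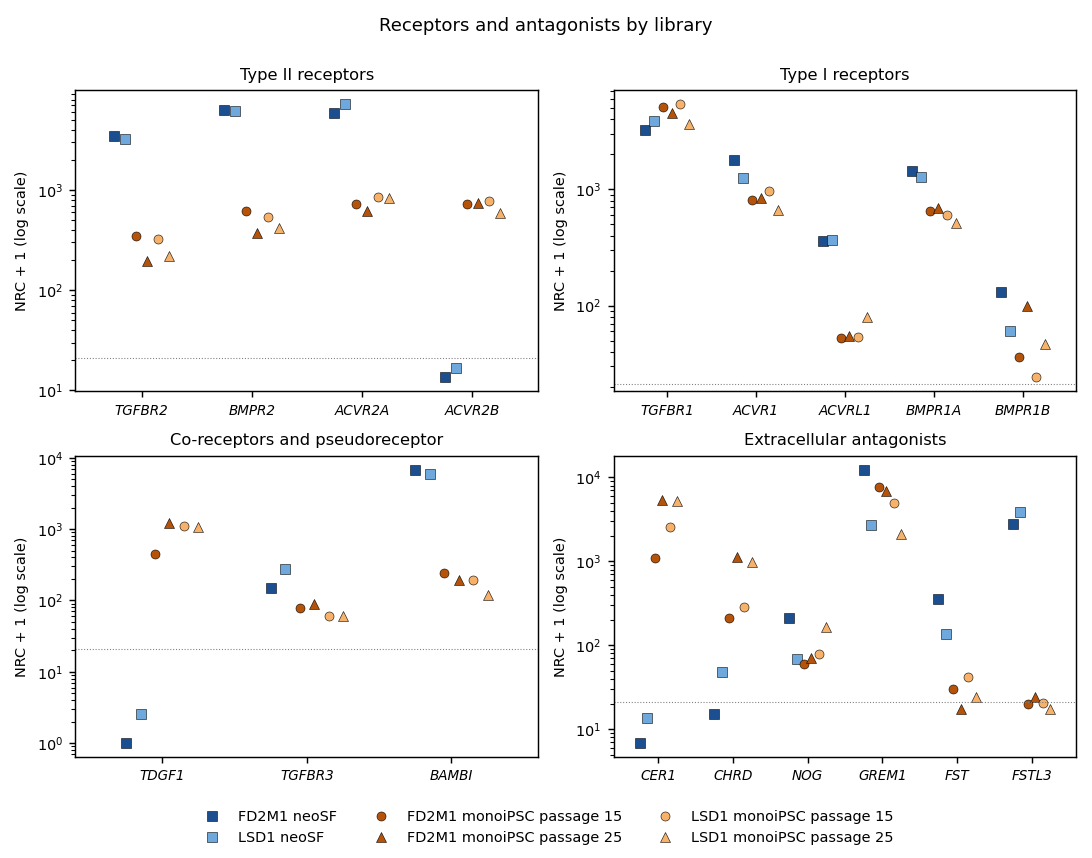
NRC + 1 of receptors, co-receptors and secreted antagonists in each of the 6 libraries on a log axis, with symbols as in the plot of the ligands. *ACVR2B* (589.5 or more in monoiPSCs against 15.9 or less in neoSFs), *TDGF1* and *CER1* sat higher in every monoiPSC library, and *TGFBR2*, *BMPR2*, *ACVR2A*, *BAMBI* and *FSTL3* lower.

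Of the 6 receptor-regulated and common SMADs, 1 fell and 5 did not pass. *SMAD2* (gene 100014493, chromosome 3) had an NRC of 2713 and 2189 in neoSFs and of 1835, 1749, 1476 and 1601 in monoiPSCs, lower by less than 2-fold (log2 fold change -0.46, standard error 0.15, edgeR adjusted p = 0.0329). *SMAD1* (gene 100018882, chromosome 5) was likewise lower by less than 2-fold (log2 fold change -0.71, standard error 0.18, edgeR adjusted p = 0.0112). With *ACVR1*, these were the 3 members past the adjusted p that missed the fold limit, and they did not overlap between the groups. *SMAD3* (gene 100018703, chromosome 1) had an NRC of 342 and 202 in neoSFs and of 706, 446, 338 and 288 in monoiPSCs, with overlap (log2 fold change 0.81, standard error 0.42, edgeR adjusted p = 0.13). *SMAD4* (gene 100010143, chromosome 3), the common SMAD, had an NRC of 2384 and 2077 in neoSFs and of 2983, 2593, 2379 and 1973 in monoiPSCs (log2 fold change 0.25, standard error 0.19, edgeR adjusted p = 0.286), and *SMAD5* a log2 fold change of 0.21 (standard error 0.17, edgeR adjusted p = 0.322). The exception was *SMAD9* (gene 100027248, chromosome 4), a BMP SMAD, which had an NRC of 578 and 133 in neoSFs and of 25.8, 43.9, 39.9 and 46.9 in monoiPSCs and fell 8.45-fold (log2 fold change -3.08, standard error 0.54, edgeR adjusted p = 0.00201). Without the FD2M1 neoSFs its log2 fold change was -1.68 and without the LSD1 neoSFs -3.78.

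Both inhibitory SMADs fell, and in each the FD2M1 neoSFs held more than the LSD1 neoSFs. *SMAD7* (gene 100019714, chromosome 3), which blocks the TGF-beta and BMP type I receptors, had an NRC of 3044 and 1485 in neoSFs and of 352, 337, 230.3 and 244 in monoiPSCs, a 7.28-fold fall (log2 fold change -2.86, standard error 0.31, edgeR adjusted p = 0.000217, -2.27 without the FD2M1 neoSFs). *SMAD6* (gene 100018599, chromosome 1), which acts mainly on BMP signalling, had an NRC of 5097 and 895 in neoSFs and of 320.5, 379, 227 and 264 in monoiPSCs, a 9.41-fold fall (log2 fold change -3.23, standard error 0.56, edgeR adjusted p = 0.00195). The size of the *SMAD6* fall depended on which neoSF library was left out, with a log2 fold change of -1.50 without the FD2M1 and -4.0 without the LSD1 neoSF library.

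The ID genes, dominant-negative helix-loop-helix proteins and standard BMP targets, were expressed at an NRC of 247 or more in every library, and only *ID1* passed. *ID1* (gene 100010733, chromosome 1) had an NRC of 4917 and 1303 in neoSFs and of 930.4, 1023, 821 and 1047 in monoiPSCs, a 3.04-fold fall (log2 fold change -1.60, standard error 0.42, edgeR adjusted p = 0.0128). The call rested on the FD2M1 neoSFs: without that library the log2 fold change was -0.36 and the call was lost, and without the LSD1 neoSFs it was -2.26. The call of *ID1* was also lost when the passages of each line were summed. *ID2* (gene 100028188, chromosome 1) had an NRC of 4688 and 3193 in neoSFs and of 3971, 3219, 4576 and 3107 in monoiPSCs (log2 fold change 0.01, standard error 0.23, edgeR adjusted p = 0.968, with the sign turning under several settings). *ID3* (gene 100009765, chromosome 4) had an NRC of 3903 and 1987 in neoSFs and of 2956, 3701, 2136 and 4096 in monoiPSCs (log2 fold change 0.23, standard error 0.34, edgeR adjusted p = 0.58). *ID4* (gene 100018112, chromosome 3) had an NRC of 539 and 247 in neoSFs and of 456, 296, 435 and 744 in monoiPSCs (log2 fold change 0.40, standard error 0.43, edgeR adjusted p = 0.449). These 3 genes overlapped between the groups.

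**Figure D4:**
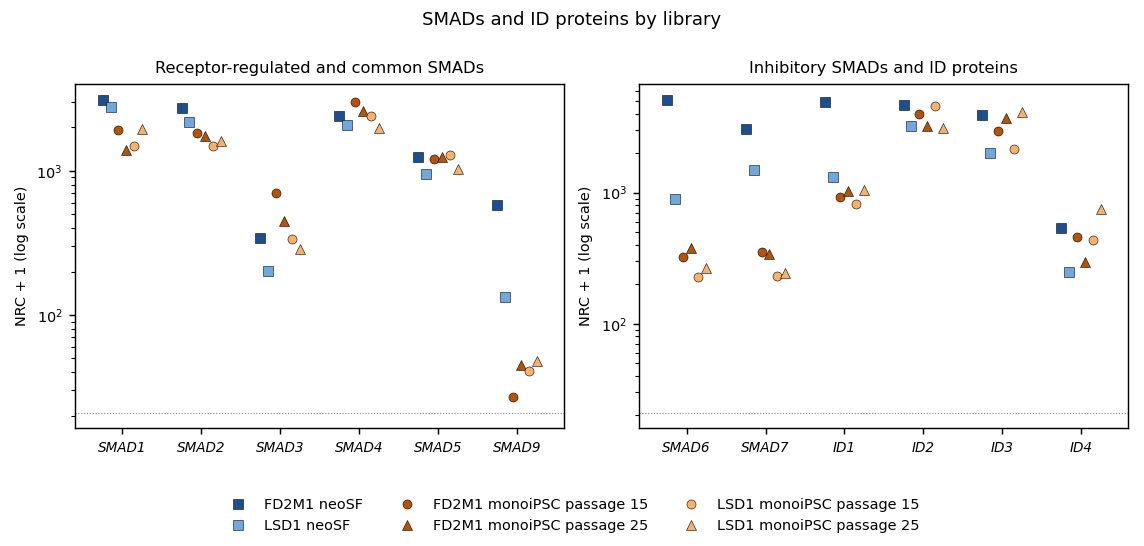
NRC + 1 of SMADs and ID genes in each of the 6 libraries on a log axis, with symbols as in the plot of the ligands. *SMAD4*, *SMAD5*, *ID2*, *ID3* and *ID4* overlapped between the groups, and the dark square of the FD2M1 neoSFs stood above the other libraries for *SMAD6* (5097), *SMAD7* (3044), *SMAD9* (578) and *ID1* (4917).

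The FD2M1 and LSD1 neoSFs were 1 library each, so their difference has no replicate check. Each strain also gave a single monoiPSC line, so strain and line cannot be told apart. Whether the change from neoSF to monoiPSC differed between strains was tested as the interaction of strain and cell type, in which the spread comes from the passages of a line. No member passed in edgeR, and 11 of the 13072 genes (0.0841%) did. At an unadjusted p under 0.05 there were 7 of 49 tested members, against 9.08% of all genes, namely *SMAD6*, *ID1*, *TGFB3*, *SMAD9*, *NOG*, *ID4* and *TGFBR3*. *SMAD6* changed by a log2 value 1.98 (standard error 0.32) higher in LSD1 than in FD2M1 (edgeR adjusted p = 0.169), *ID1* by 1.84 (standard error 0.32, edgeR adjusted p = 0.179) and *TGFB3* by 1.90 (standard error 0.51, edgeR adjusted p = 0.325). DESeq2 called these 3 members and 2.33% of all genes. Without LSD1 passage 15, edgeR called *ID1* and 0.864% of all genes. All 3 had the larger fall in FD2M1, whose neoSFs held the higher value, with an NRC of 5097 against 895 for *SMAD6*, 4917 against 1303 for *ID1* and 5670.5 against 1684 for *TGFB3*.

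Among the monoiPSC libraries, no member passed between passages or between strains in edgeR, and no gene of the 12252 expressed in monoiPSCs did, so that 0% were called. At an unadjusted p under 0.05, 11 of 42 members differed between passages, against 9.34% of all genes. *CHRD* was higher at passage 25 in both lines, from an NRC of 209 to 1113 in FD2M1 and from 285 to 990.0 in LSD1 (log2 difference 2.09, standard error 0.23, edgeR adjusted p = 0.101). *CER1* went from 1096 to 5354 and from 2600.1 to 5231 (log2 difference 1.63, standard error 0.32, edgeR adjusted p = 0.269). *GDF10* was lower at passage 25, at 235 against 497 and at 154 against 358 (log2 difference -1.16, standard error 0.23, edgeR adjusted p = 0.269). DESeq2 called *CHRD* and *CER1*, and 0.939% of all genes. Without the FD2M1 passage 25 library edgeR called 4 members between passages, *CHRD* and *CER1* among them, and 1.61% of all genes. Without LSD1 passage 25 it called *CHRD* alone among the members and 0.00816% of all genes. In these fits passage 25 is a single library that is assumed to vary as the pair at passage 15 does, and strain is not a term. *FOXA2*, a factor of the node and endoderm, had an NRC of 1118 and 1511 at passage 15 and of 3719 and 3820 at passage 25 (log2 difference 1.52, standard error 0.17, edgeR adjusted p = 0.101). The summed NRC of 8 primitive streak, mesoderm and endoderm markers, *FOXA2* among them, was 1198 and 1599 at passage 15, 3856 and 3918 at passage 25, and 475 and 1136 in neoSFs. Of the defining markers in monoiPSCs, *TBXT* was at most at an NRC of 8.79, *EOMES* at 1.03 and *SOX17* at 2.51, and *GATA4* had 0 counts in all 6 libraries. *MIXL1* was at 68.0 and 72.9 at passage 15 and at 83.0 and 70.1 at passage 25, and *GATA6*, which made up most of the neoSF sum at 419 and 1079, was at 2.53 and 4.21 at passage 15 and at 28.3 and 17.0 at passage 25. The part of such cells in the passage difference was not tested.

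**Figure D5:**
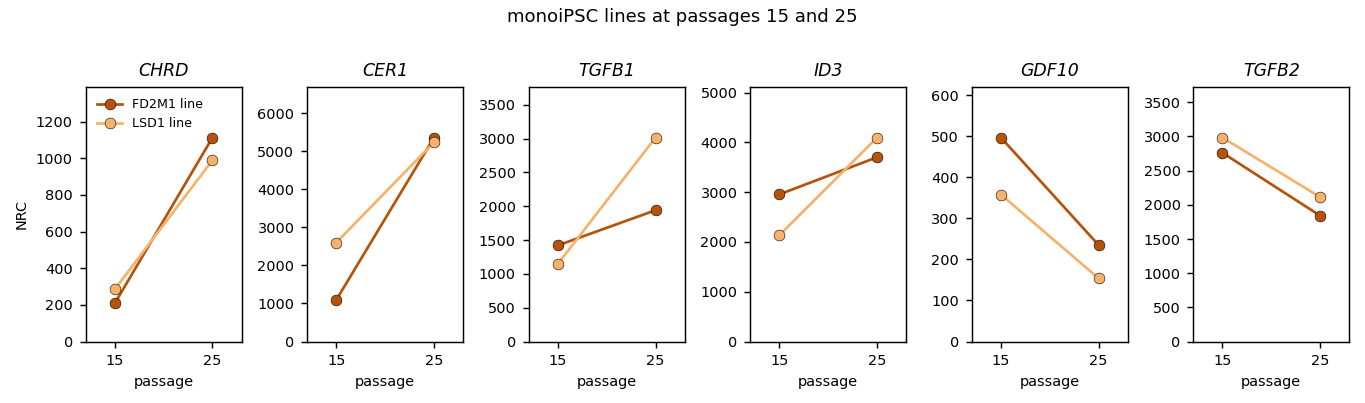
NRC of *CHRD*, *CER1*, *TGFB1*, *ID3*, *GDF10* and *TGFB2* (linear axes from 0) against passage in the FD2M1 line (dark) and the LSD1 line (light), 1 library per point. *CHRD*, *CER1*, *TGFB1* and *ID3* were higher and *GDF10* and *TGFB2* lower at passage 25 in both lines, but no difference passed the adjusted threshold in edgeR.

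Between strains at the monoiPSC stage, 4 of 42 members reached an unadjusted p under 0.05, against 14.2% of all genes. As each strain gave a single line, strain and line cannot be told apart, and the passages are the only replicates. *BMP2* was lower in LSD1, at 473 and 492 against 1217 and 862 (log2 difference -1.08, standard error 0.20, edgeR adjusted p = 0.149), as were *GREM1* (-1.15, standard error 0.27, edgeR adjusted p = 0.208) and *SMAD3* (-0.84, standard error 0.21, edgeR adjusted p = 0.223). DESeq2 called *BMP2* and *GREM1*, and 1.57% of all genes. Without LSD1 passage 15, which leaves a single LSD1 library, edgeR called *GREM1* and 0.408% of all genes. The standard deviation of log2 NRC over the 4 monoiPSC libraries had a median of 0.34 over the 42 members, against 0.25 over all 12252 genes. *CHRD* (1.23) and *CER1* (1.08) had the highest and *FSTL1* (0.048), *SMAD2* (0.14) and *SMAD5* (0.14) the lowest values among the members.

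Other genes of the pathway, from a list of 85 ligand carriers, regulators and targets, were examined beside the members. Of 71 found in the files, 58 were tested, of which 30 fell, 11 rose and 17 did not pass. Those that fell made up 51.7% and those that rose 19.0% of the tested genes of the list, against 21.6% and 24.3% of all genes tested, which is also the background of the smaller groups that follow. Of the 8 tested genes for latency and matrix storage of TGF-beta, 6 fell and 1 rose. *LTBP2*, a matrix protein of the latent TGF-beta binding protein family, fell (log2 fold change -6.69), as did *LRRC32*, which anchors latent TGF-beta on the cell surface (-5.77), and *LTBP4* rose narrowly (1.14, edgeR adjusted p = 0.0471, a call lost without the LSD1 neoSFs, FD2M1 passage 15, FD2M1 passage 25 or LSD1 passage 25). Of 7 genes for ligand processing and activation, 3 fell and 1 rose. *ITGAV* (-3.85) and *ITGB8* (-3.00), which encode the integrin that activates latent TGF-beta, fell, and *TLL2*, a relative of the protease *BMP1*, rose (6.46). *ITGB8* was at an NRC of 318 in the FD2M1 and 32.5 in the LSD1 neoSFs, and its call was lost without the FD2M1 neoSFs or LSD1 passage 15. Of 4 further receptors and co-receptors, *ENG*, the endothelial TGF-beta co-receptor endoglin, fell (-2.60), while the BMP co-receptors *RGMA* (1.48) and *RGMB* (1.97) rose, the latter not without the LSD1 neoSF library. Of 6 other antagonists tested, 5 fell and none rose, led by *DCN*, the matrix proteoglycan decorin (-8.73), and the protease *HTRA1* (-5.49).

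Inside the cell, 10 of 15 regulators did not pass. *RUNX2*, a SMAD partner in bone formation (-4.75), and *PMEPA1*, a TGF-beta-induced inhibitor (-3.35), fell, and the corepressor *TGIF2* rose (1.47). *FOXH1*, the SMAD partner of NODAL signalling, was named after its values were seen, and it was at 0 in both neoSF libraries and at an NRC of 22.5 to 41.2 in the monoiPSCs. Of 9 target genes of TGF-beta, 8 fell and 1 rose. Both *COL1A1* and *FN1* of this list, and *DCN* of the antagonists, are also among the fibroblast markers. These counts are thus not independent of the marker sums. *ACTA2*, smooth muscle actin, had an NRC of 5.02 or less in monoiPSCs (-15.47), *COL1A1*, a collagen gene, fell too (-9.37), and *PDGFB*, a growth factor gene, rose (5.04, edgeR adjusted p = 0.0207), a call lost when either neoSF library was left out. Of 3 tested target genes of NODAL, *FOXA2* rose (6.64), as did *MIXL1*, a gene of the primitive streak (1.84). Of 6 BMP targets, *GATA2* (-3.36) and *GATA3* (-3.30) fell with 1 other gene, and *HEY1* (3.58) and *TBX2* (2.93) rose, the last not without either neoSF library.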

How the data were processed

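RNA of 2 neoSF and 4 monoiPSC libraries was sequenced. The authors describe poly-A enrichment for the neoSF libraries, and for the monoiPSC libraries their methods name only total RNA and a sequencing service. The authors aligned the reads to MonDom5, filtered them, counted reads per RefSeq gene in StrandNGS and deposited estimated counts and log2 values after DESeq normalization. Fractions made up 87.1% of the nonzero counts, which were rounded here. How strand and read pairs were handled in counting is not given in the sources used here. The NRC is 2 to the power of the deposited log2 value, or 0 where that is listed at 0. In each file, 2 rows without a gene name were left out. Genes that reached an NRC of 20 in each library of either group were tested on TMM-scaled counts by edgeR's quasi-likelihood test (version 4.0.16 under R 4.3.3), without a block, and p-values were adjusted over all tested genes by Benjamini-Hochberg. The standard error is the log2 fold change divided by the square root of F. DESeq2 1.42.0, limma 3.58.1, other scalings and filters, a strain block, summed passages and each library left out were the alternatives. Strain pairs the groups, since each line was reprogrammed from the neoSF culture of its strain, although strain differences in neoSFs and monoiPSCs correlated weakly across 10979 genes (r = 0.086, rho = 0.16, over genes, which are not independent replicates). All 57 gene numbers matched the RefSeq table of mMonDom1.pri, another assembly, so no coordinates or sequences are given.

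Values by library were given for a chosen list of members and for the 2 highest and 2 lowest fold changes per role among DE members whose higher group averaged an NRC of 100 or more; other DE members are named with their fold change. Some genes that the counts include are not reported here. Of the other pathway genes, the 2 highest and 2 lowest per group by the same limit are named. *MIXL1*, with a mean NRC of 73.5 in monoiPSCs, and *FOXH1* were under that limit and are named outside this rule. In the comparisons within monoiPSCs and between strains, the 3 members with the smallest p are named. The members, lists and tests were chosen with earlier results of these data known.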

Additional observations from a re-analysis of the deposited data

Results flagged for a closer look

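Within the 4 monoiPSC libraries, 1 library stood apart from the other 3 by Dixon's criterion for 2 of 42 members (4.76%), where chance gives about 1 in 20. *ACVRL1* had an NRC of 78.3 in LSD1 at passage 25, with the nearest library at 53.7. *BMP3* had an NRC of 161 in FD2M1 at passage 25, with the nearest at 300.3.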

How the results depend on the processing

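The 7 members that rose were called in each of the 13 alternatives, and the number that fell was 21 to 27, lowest without the FD2M1 neoSFs. Of the 33 DE members, 26 were called under all 13. Of the members that rose, 6 were expressed in monoiPSCs only, and of those that fell, 7 in neoSFs only. The filter had fixed the direction of these members. The strain block gave 7 up and 26 down and changed no member's call. The number of other pathway genes that rose was 7 to 13 with each library left out, 7 without the LSD1 neoSFs. Between passages DESeq2 called 2 members and leaving out a library gave 0 to 4 (4 without FD2M1 passage 25), between strains 2 and 0 to 1 and for the interaction 3 and 0 to 1 (1 without LSD1 passage 15 in both). The left-out libraries of these 3 comparisons were chosen after seeing the data. Signs turned for members that did not pass. *ID2* was -0.041 with RLE scaling, -0.041 with DESeq2, -0.075 with limma, -0.044 with filterByExpr and -0.0053 with passages summed. With each library left out, log2 fold changes ran from -0.23 to 0.31 for *ID2*, -1.49 to 1.53 for *BMP5*, -1.07 to 0.56 for *NOG*, -1.08 to 1.11 for *GREM1*, -0.18 to 0.78 for *ID3*, -0.19 to 1.35 for *INHBB* and -0.058 to 1.05 for *ID4*. The cause was not tested. Without the expression filter the median of all genes moved from 0.08 to 0.21. The neoSF libraries are shallower, and genes with few counts there (*TDGF1*, *BMP7*, *CER1*, *FSTL5*) have uncertain sizes. The sizes of other members, such as *CHRD* and *SMAD6*, also depended on which neoSF library was left out. *NODAL* was low in both groups and was not tested.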
